A study of Mus musculus with 24 samples.

Results

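Rab GTPases are small membrane-bound proteins that mark the compartments of a cell, and the mRNA of 59 Rab genes was followed in single mouse oocytes and in single embryos during the first 12 h after sperm injection. The genes were taken by name, as every mouse symbol of the platform annotation made of Rab, a number and at most a letter and a digit, which gave 59 of the 19532 measured genes and 114 probes. The naming rule itself uses no measured value, but the members were chosen with earlier results of these data known. Each gene was represented by its brightest probe, judged by the mean of the 24 arrays, and 38 of the 59 genes had more than 1 probe.

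The 24 arrays each held 1 cell. The group called 0 h held 3 metaphase II (MII) oocytes, which are arrested in the second meiotic division until fertilization. The other groups held 1-cell embryos that had received a sperm by intracytoplasmic injection (ICSI). There were 3 embryos in each of the 2 h, 6 h and 8 h groups and 4 in each of the 4 h, 10 h and 12 h groups. All oocytes and embryos carry the strain label B6D2F1, a hybrid mouse strain, no engineered allele is named, and the sperm came from B6D2F1 males aged 8 to 12 weeks. The oocytes therefore differ from the embryos both in sperm injection and in time in culture, and no label ties a cell to an animal, so the p-values describe only how far these cells lie apart, which may be partly technical. The mRNA of each cell passed through PCR amplification before labelling.

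The values given are levels of log2 intensity, calculated back from the scores that were deposited. The most common log2 intensity, 6.79, was taken as background, and a cell was counted as above background for a gene when its value exceeded 7.79, which is 1 log2 unit higher. A change to or from background is understated in size. All 10 oocyte markers (among them Gdf9, Zp3 and Nlrp5) had a mean above this limit in each of the 7 groups. The log2 of the summed intensity of the markers was 17.74 to 17.83 in the oocytes and 16.86 to 17.21 in the 12 h embryos. The brightest markers weigh most in such a sum, and the summed levels below were calculated in the same way. Of 10 sperm markers, 4 had a mean above the limit in the oocytes and 4 to 8 in the embryo groups, with 8 at 8 h, and summed levels of 12.61 to 13.39 at 0 h and 13.48 to 14.74 in the embryos. Of 9 measured cumulus and granulosa markers, 1 was above the limit at 0 h and up to 4 in an embryo group, with summed levels of 12.66 to 12.77 at 0 h and 12.83 to 13.73 later. Of 5 measured blood markers, 4 were above the limit at 0 h and 2 or 3 later, with summed levels of 13.23 to 13.73 at 0 h and 13.03 to 14.36 later. Prm1 rose in all embryos by 1.09 (limma adjusted p = 0.0213), and Oaz3 and Plcz1 rose at 8 h by 3.86 and 1.05 (adjusted p of 0.0184 and 0.0458 from limma). Prm1 already measured 11.24 to 11.46 in the 3 oocytes, which had received no sperm. Plcz1 had a mean of 7.98 at 8 h, with 2 of 3 embryos above the limit. Of the oocyte markers Mos fell by 3.06 and Gdf9 fell by 0.67 in all embryos (limma adjusted p of 0.0179 and 0.0445). At 12 h Mos, Gdf9, H1f8 and Zar1 fell. The slope over the embryos had a limma adjusted p under 0.05 for 4 oocyte markers, falling in 3 and rising in Bmp15. Bmp15 rose by 0.15 log2 units per hour (adjusted p = 0.00306 from limma). Its mean was 14.13 at 0 h, 12.85 at 4 h and 14.36 at 12 h. The part of these other markers in the Rab values was not tested. The oocyte arrays also had more distinct values than the embryo arrays (7580 to 7856 against 5309 to 7531), and cells of the oocyte group resembled each other more, with mean correlations across genes of 0.93 to 0.94 against 0.83 to 0.89 within the embryo groups.

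A Rab protein switches between a GTP-bound form, which recruits effector proteins to a membrane, and a GDP-bound form. Exchange factors load it with GTP, GTPase-activating proteins end the signal, and an escort protein and a prenyl transferase attach the lipid that anchors it. The oocyte and the zygote use this machinery for the release of cortical granules at fertilization, for the vesicles that carry actin and membrane to the cortex, and for the endocytosis and lysosomal breakdown of maternal membrane proteins.

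Most Rab genes were detected in at least some of the cells, and every class of compartment had members detected in every cell. In all 24 cells, 23 of the 59 genes were above background (39%, against 26.5% of all 19532 genes). They were Rab2a, Rab6a and Rab18 of the endoplasmic reticulum (ER) and Golgi, Rab5a, Rab5c and Rab21 of early endosomes, Rab4a, Rab11a, Rab14, Rab17 and Rab35 of recycling endosomes, and Rab7, Rab9, Rab9b, Rab12, Rab24 and Rab38 of late endosomes, lysosomes and related organelles. Those linked to secretion were Rab3d, Rab8a, Rab8b, Rab10 and Rab27a, and Rab23, which acts in Hedgehog signalling in the mouse, was the only 1 of the 6 genes without a place in these classes. Rab26, Rab34 and Rab40b were above background in no cell (5.08% of the Rab genes, against 10.5% of all genes), and the other 33 in some cells. By class the genes above background in every cell were 3 of 16 for ER and Golgi, 3 of 7 for early endosomes, 5 of 9 for recycling, 6 of 9 for late endosomes and lysosomes and 5 of 12 for secretion. A gene not above background may still be expressed, since the limit depends on its probe.

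**Figure D1:**
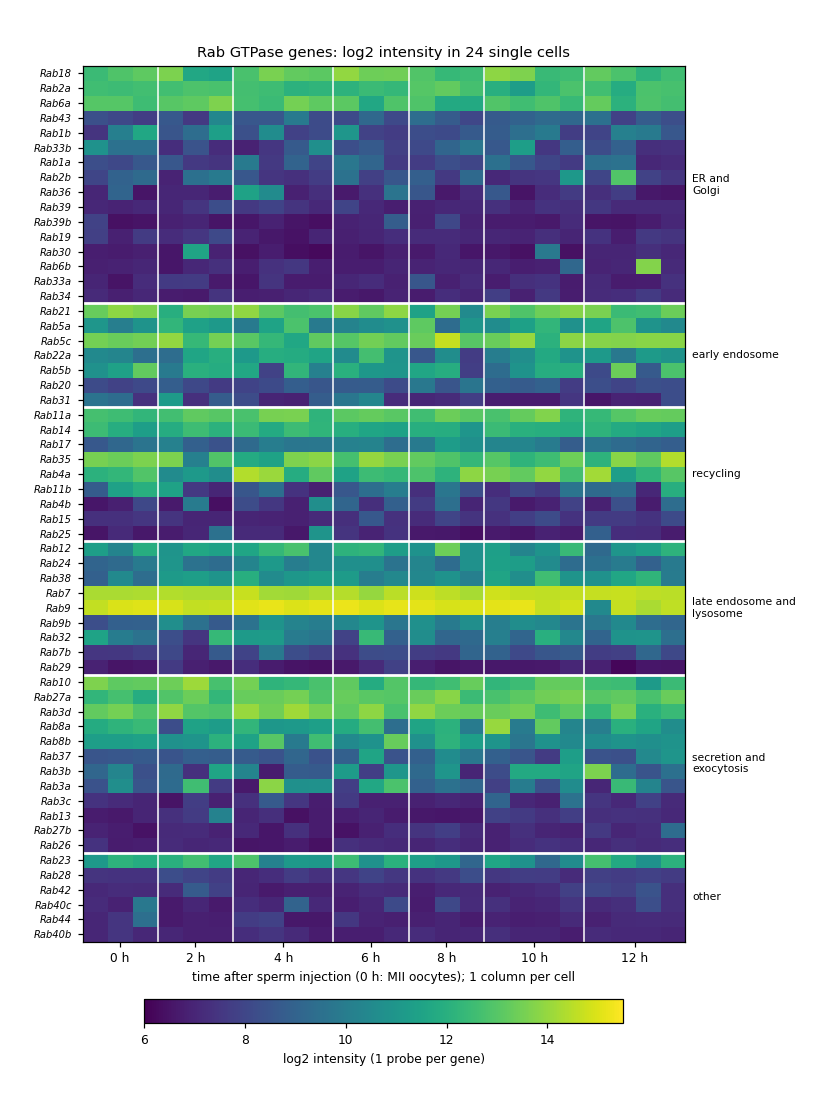
Log2 intensity of the 59 Rab genes (rows, 1 probe each, ordered by class and then by the number of cells above background) in the 24 cells (columns, ordered by time after sperm injection in h). The colour scale runs from dark (near the background of 6.79) to yellow (bright); Rab7 and Rab9 were bright in nearly every cell, and Rab26, Rab34 and Rab40b stayed dark in all 24. Brightness cannot be compared between rows, because each row is another probe.

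The first question was whether the mRNA of any Rab gene changed after sperm injection, and 0 of the 59 passed the test at any time. The test was limma's moderated test over all 19532 genes with Benjamini-Hochberg adjustment, and a gene was called changed at an adjusted p under 0.05. At 2 h against the oocytes 0 of 59 were called, against 0.102% of all genes, and at 4 h 0 of 59 against 0.0666%. At 6 h it was 0 against 0.148%, at 8 h 0 against 0.845%, at 10 h 0 against 0.707% and at 12 h 0 against 1.46%. With background shares this low, 0 or 1 call among 59 genes lies near the background. The mean of the 6 embryo groups against the oocytes also gave 0 of 59 (0.932% of all genes), the F-test over all 7 times 0 (1.2%), and the linear slope over the 21 embryos 0 (0.589%).

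At an unadjusted p under 0.05 the Rab genes again lay near the background. There were 6 such genes of 59 at 2 h (9.5% of all genes), 7 at 4 h (9.25%) and 2 at 6 h (8.77%). There were 6 at 8 h (13.4%), 8 at 10 h (11.3%) and 8 at 12 h (13.5%). For all embryos against oocytes there were 6 (10.6%), for all 7 times 6 (15.1%), and for the slope 5 (12.5%). The smallest adjusted p of a Rab gene from limma was 0.137, that of Rab21 at 8 h. The median log2 change of the 59 genes was 0.10 in all embryos against oocytes, as was that of all 19532 genes. At single times it lay between -0.02 at 8 h and 0.16 at 12 h, where all genes had medians of 0.05 and 0.08.

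Counts of genes whose cells did not overlap with the oocytes were also near the background. At 2 h every embryo lay on 1 side of all 3 oocytes for 10 Rab genes, where 18.1% of all genes did so. The count was 11 at 4 h, where the share of all genes was 14.3%, and 9 at 6 h, with a share of 19.9%. It was 9 of the 59 for the 8 h embryos (24.9% of all genes), 8 for the 10 h embryos (15.4%) and 14 for the 12 h embryos (19.3%). No Rab gene had all 21 embryos on 1 side of the oocytes (1.12% of all genes).

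A missed threshold did not show that a level was steady. The 95% interval of the change lay within 1 log2 unit of 0 in all embryos for 18 of 59 Rab genes (38.4% of all genes). Among the 23 Rab genes above background in all cells it did so for 7 (21.9% of such genes), so for most members a change of that size was not excluded with these numbers of cells.

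**Figure D2:**
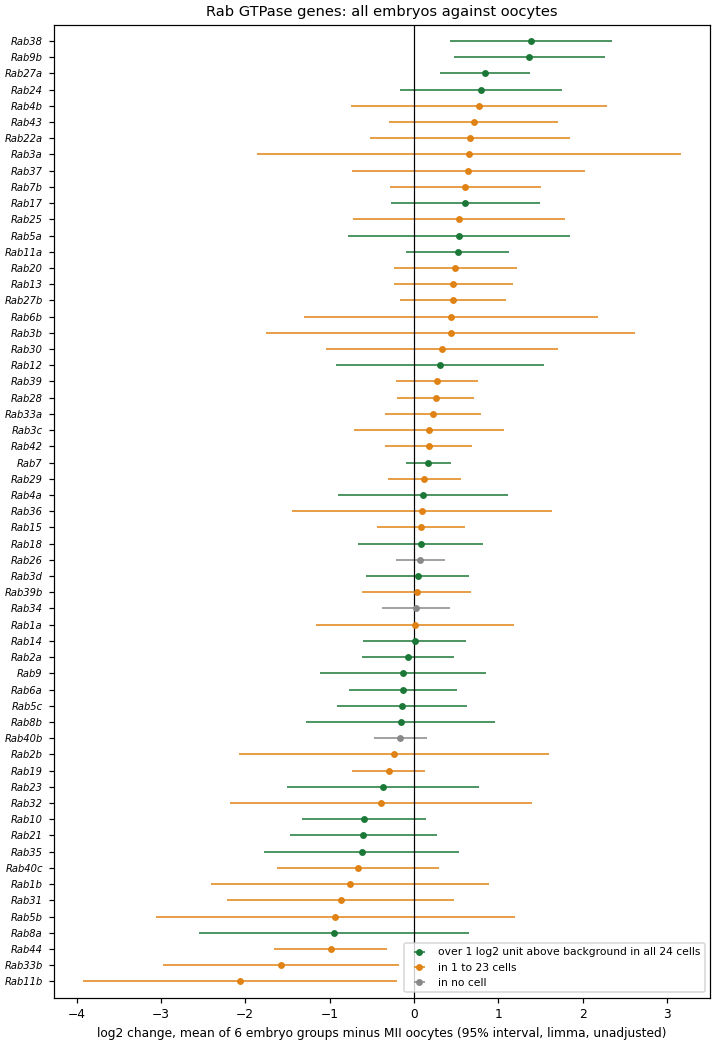
Log2 change of each of the 59 Rab genes between the mean of the 6 embryo groups and the 3 MII oocytes, with its unadjusted 95% interval from limma; the vertical line marks no change. Colours give whether the gene was over 1 log2 unit above background in all 24 cells, in some or in none; 53 of 59 intervals include 0 and 6 do not, and 0 passed the adjusted threshold.

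Among the Rab genes of the ER and Golgi, the probes used for the members detected in every cell had small changes, but other probes of the same genes had larger ones. Rab2a, which acts between the Golgi and the ER, measured 12.60, 12.51 and 12.62 in the oocytes and had a lowest value of 11.28, a median of 12.61 and a highest of 13.23 in the 21 embryos. Its log2 change in all embryos was -0.07 (SE 0.26, 95% interval -0.61 to 0.47). Embryos lay on both sides of the oocytes, and the change was smaller than the spread between cells. The other probe of Rab2a, above background in all 24 cells, changed by -0.45.

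Rab6a, of traffic within and back from the Golgi, measured 13.00, 13.01 and 12.56 in the oocytes and 11.68 to 13.67 in the embryos (median 12.87), a change of -0.13 (SE 0.31). Rab18, found on the ER and on lipid droplets, measured 12.47, 12.88 and 13.15 in the oocytes and 11.50 to 13.95 in the embryos (median 12.93), a change of 0.08 (SE 0.36). In both genes the embryos spread around the oocytes on either side. Other probes above background in all 24 cells changed by -0.91 for Rab6a and -1.19 for Rab18, so these values depend on the probe.

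Rab1a and Rab1b carry vesicles from the ER to the Golgi. Rab1a lay near background, at 8.27, 8.07 and 8.63 in the oocytes and 7.05 to 9.86 in the embryos (median 7.97), with 13 of 21 embryos above background and a change of 0.01 (SE 0.56). Rab1b measured 7.42, 10.09 and 11.65 in the oocytes, which span the whole range of the embryos, 7.69 to 11.35 (median 8.58), and its change was -0.75 (SE 0.79). The oocytes themselves were too far apart in Rab1b to show a difference of this size.

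Rab33b, a Golgi Rab that binds the autophagy protein Atg16l1, had 1 of the largest decreases in the mean. Its values were 10.83, 9.53 and 9.53 in the oocytes, 7.24, 8.44 and 7.22 at 2 h, and 6.91, 7.49, 8.68 and 10.71 at 4 h. They were 8.26, 8.70 and 7.80 at 6 h, 8.11, 9.11 and 9.78 at 8 h, 8.63, 11.31, 7.53 and 8.82 at 10 h, and 8.20, 8.94, 7.30 and 7.34 at 12 h. Of the 21 embryos 18 were below every oocyte and 1, at 10 h, was above every oocyte. The change in all embryos was -1.58 (SE 0.67, 95% interval -2.97 to -0.18, limma adjusted p = 0.382), and the gene has 1 probe on the array.

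Of the early endosome genes, Rab5a, Rab5b and Rab5c drive the fusion of endocytic vesicles. Rab5c measured 13.53, 13.34 and 13.48 in the oocytes and 11.65 to 14.65 in the embryos (median 13.34). Its change was -0.14 (SE 0.37) in all embryos, and the 4 embryos at 12 h, at 13.77, 13.75, 13.83 and 13.80, were close together and above every oocyte. At 12 h that difference did not pass the test, and the 4 h embryos, at 13.07, 12.34, 11.65 and 13.18, were all below every oocyte.

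Rab5a measured 10.98, 10.06 and 10.87 in the oocytes and 9.34 to 13.13 in the embryos (median 10.95), a change of 0.53 (SE 0.63). Rab5b measured 10.79, 11.44 and 13.22 in the oocytes and 7.75 to 13.38 in the embryos (median 11.62), a change of -0.93 (SE 1.03, 95% interval -3.06 to 1.20), or -0.23 without the oocyte at 13.22. The Rab5b values of cells of 1 time were far apart, for example 8.14, 13.38, 8.68 and 12.82 at 12 h. Another probe of Rab5b, above background in all 24 cells, had a smaller pooled standard deviation (0.38 against 1.81) and changed by 0.62, in the opposite direction.

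Rab21, which carries integrins into endosomes, gave the smallest adjusted p of any Rab gene. It measured 13.28, 13.87 and 13.65 in the oocytes and 11.49, 13.50 and 10.54 at 8 h, a change of -1.76 (SE 0.56, limma adjusted p = 0.137). The 8 h cells differed among themselves, and 1 of the 3 lay within the oocytes' range. Without that cell the change was -2.59 and passed the test (adjusted p = 0.0143 from limma), and without the lowest cell it was -1.11 (adjusted p = 0.484 from limma). The 8 h group is also the one with the most sperm markers above background, and their part in this value was not tested. At 10 h, with 13.59, 12.87, 13.40 and 13.78, the embryos overlapped with the oocytes. In all embryos the probe used for Rab21 changed by -0.60. The other probe of Rab21, above background in 23 of the 24 cells, changed by 0.25, so the direction depended on the probe.

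In the recycling class, Rab11a and Rab11b had changes of opposite sign. Both return membrane from the recycling endosome to the surface, and Rab11a vesicles also carry the actin nucleators that build the cytoplasmic actin network of the mouse oocyte. Rab11a measured 12.70, 12.55 and 12.24 in the oocytes and 12.18 to 13.69 in the embryos (median 13.08), with 16 of 21 embryos above every oocyte. Its change was 0.52 (SE 0.30, 95% interval -0.10 to 1.13), while 2 other probes above background changed by 0.42 and -0.68.

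Rab11b measured 8.78, 11.44 and 12.00 in the oocytes, 11.46, 7.56 and 7.03 at 2 h, and 8.56, 9.43, 7.39 and 6.82 at 4 h. It measured 8.59, 9.43 and 10.02 at 6 h, 7.30, 9.73 and 8.28 at 8 h, 7.25, 8.03, 7.63 and 9.65 at 10 h, and 9.28, 9.45, 7.05 and 11.97 at 12 h. Of 21 embryos 12 were below every oocyte and 0 above, and 13 were above background. The change in all embryos was -2.06 (SE 0.90, 95% interval -3.92 to -0.20, limma adjusted p = 0.394), and 2 other probes above background changed by -1.22 and -0.70. The difference between the changes of Rab11a and Rab11b was not tested.

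Rab4a, of the fast recycling route, was below every oocyte in all 3 embryos at 2 h. It measured 12.10, 12.31 and 12.92 in the oocytes, 10.60, 11.10 and 10.66 at 2 h, and 14.41, 14.07, 11.89 and 13.18 at 4 h. The 4 h cells lay above every 2 h cell, and 3 of the 18 embryos after 2 h were below every oocyte while 9 were above. The change was -1.66 (SE 0.64, limma adjusted p = 0.396) at 2 h and 0.11 (SE 0.49) in all embryos, and the F-test over all 7 times gave an adjusted p of 0.144, the smallest of the Rab genes in that test.

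Its paralog Rab4b was above background in 9 of 21 embryos, with 6.56, 6.85 and 8.07 in the oocytes, 6.39 to 10.69 in the embryos (median 7.55) and a change of 0.77 (SE 0.73), or 1.23 without the oocyte at 8.07. Rab14, which acts between endosomes and the Golgi, measured 12.50, 11.92 and 11.32 in the oocytes and 10.97 to 12.54 in the embryos (median 11.95), a change of 0.01 (SE 0.29). Rab35, of endosomal recycling and cytokinesis, measured 13.53, 13.37 and 13.62 in the oocytes and 10.15 to 14.40 in the embryos (median 13.00), a change of -0.62 (SE 0.56). Of these genes Rab14 kept to the narrowest range over the embryos, and in Rab35 the oocytes were close together while the embryos reached to either side of them.

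The late endosome and lysosome class held the steadiest detected member. Rab7 directs late endosomes to fuse with lysosomes, and it measured 14.29, 14.30 and 14.32 in the oocytes, 14.41, 14.32 and 14.35 at 2 h, and 14.70, 14.19, 14.16 and 14.33 at 4 h. It measured 14.46, 13.99 and 14.53 at 6 h, 14.79, 14.56 and 14.25 at 8 h, 14.83, 14.62, 14.60 and 14.64 at 10 h, and 14.67, 14.69, 14.54 and 14.50 at 12 h. All 24 cells lay between 13.99 and 14.83, and all 8 embryos of the last 2 times were above every oocyte. The pooled standard deviation within groups was 0.18, and 1.62% of the 5173 genes above background in all cells had 1 as small.

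The change of Rab7 in all embryos was 0.17 (SE 0.13, 95% interval -0.10 to 0.44), and its slope over the embryos was 0.03 log2 units per hour (SE 0.01, limma adjusted p = 0.285). The other probe of Rab7 had a pooled standard deviation of 0.76 and changed by -0.26. Its steadiness was remarked on after the values were seen and holds for 1 of its 2 probes.

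Rab9, which returns mannose 6-phosphate receptors from late endosomes to the Golgi, measured 14.63, 14.95 and 15.02 in the oocytes. It lay between 14.63 and 15.23 in the 17 embryos from 2 h to 10 h, and measured 10.52, 14.65, 14.29 and 14.59 at 12 h. One 12 h embryo was thus far below the other cells. The change in all embryos was -0.13 (SE 0.47), and at 12 h it was -1.35 (SE 0.59, limma adjusted p = 0.3), or -0.36 without that embryo.

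Rab9b and Rab38 were higher in most embryos than in the oocytes, without passing the test. Rab9b, a paralog of Rab9, measured 8.27, 8.90 and 8.96 in the oocytes, 10.69, 9.54 and 8.69 at 2 h, and 9.56, 10.87, 10.26 and 10.01 at 4 h. It measured 10.39, 10.93 and 9.71 at 6 h, 10.76, 9.86 and 10.68 at 8 h, 10.05, 10.65, 10.43 and 9.64 at 10 h, and 9.76, 10.50, 9.40 and 9.12 at 12 h. All but 1 embryo, at 2 h, were above every oocyte. The change was 1.37 (SE 0.43, 95% interval 0.47 to 2.26, limma adjusted p = 0.163), and the other probe of Rab9b was at background in all cells.

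Rab38 acts with Rab32 in the making of melanosomes and other lysosome-related organelles. It measured 8.92, 10.51 and 9.39 in the oocytes, 11.19, 11.32 and 10.93 at 2 h, and 11.95, 10.60, 11.02 and 11.29 at 4 h. It measured 11.22, 10.02 and 10.45 at 6 h, 10.40, 10.86 and 10.10 at 8 h, 11.55, 10.70, 12.60 and 10.93 at 10 h, and 10.79, 11.61, 12.20 and 9.94 at 12 h. Of the 21 embryos 16 were above every oocyte and 0 below, and all embryos at 2, 4 and 10 h were above. The change was 1.39 (SE 0.46, 95% interval 0.43 to 2.35, limma adjusted p = 0.204), measured by the only probe of Rab38.

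Rab24, linked to autophagy, measured 9.04, 9.30 and 9.87 in the oocytes and 8.96 to 11.40 in the embryos (median 10.30), with 14 of 21 above every oocyte. Its change was 0.80 (SE 0.46, 95% interval -0.16 to 1.75). The 9 genes of the class had a median change of 0.31 in all embryos and 7 of 9 were positive, while the median of all genes was 0.10 and 59.4% were positive. The secretory class had the same median of 0.31 with 9 of 12 positive, and 7 of 9 recycling genes were positive too. The late endosome and lysosome class had 7 of 9 positive at 2 h, 9 at 4 h and 8 at 6 h. It had 7 at 8 h, 9 at 10 h and 5 at 12 h, and at each time 0 were called. At the same 6 times the secretory class had 9, 8, 9, 7, 7 and 8 of 12 positive. The share of all genes that was positive at single times was not counted. The median change of all genes was also positive at each time, from 0.02 to 0.08. All times share the same 3 oocytes, so these counts are not independent of each other.

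In the secretory class, Rab27a was higher in 19 of 21 embryos than in every oocyte. Rab27a and Rab3a take part in the release of cortical granules in the mouse egg. Rab27a measured 12.25, 12.71 and 11.88 in the oocytes, 12.91, 13.36 and 12.30 at 2 h, and 13.29, 13.34, 13.53 and 12.88 at 4 h. It measured 13.28, 13.06 and 13.01 at 6 h, 13.32, 13.80 and 12.49 at 8 h, 12.79, 13.12, 13.44 and 13.55 at 10 h, and 13.03, 13.17, 12.77 and 13.35 at 12 h. The 2 embryos within the oocytes' range were 1 at 2 h and 1 at 8 h.

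The change of Rab27a was 0.84 (SE 0.26, 95% interval 0.31 to 1.38, limma adjusted p = 0.146), the smallest adjusted p of the Rab genes for all embryos. The other probe of Rab27a, above background in all 24 cells, had a larger pooled standard deviation (0.93 against 0.39) and changed by -0.50. The direction of Rab27a thus depended on the probe.

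**Figure D3:**
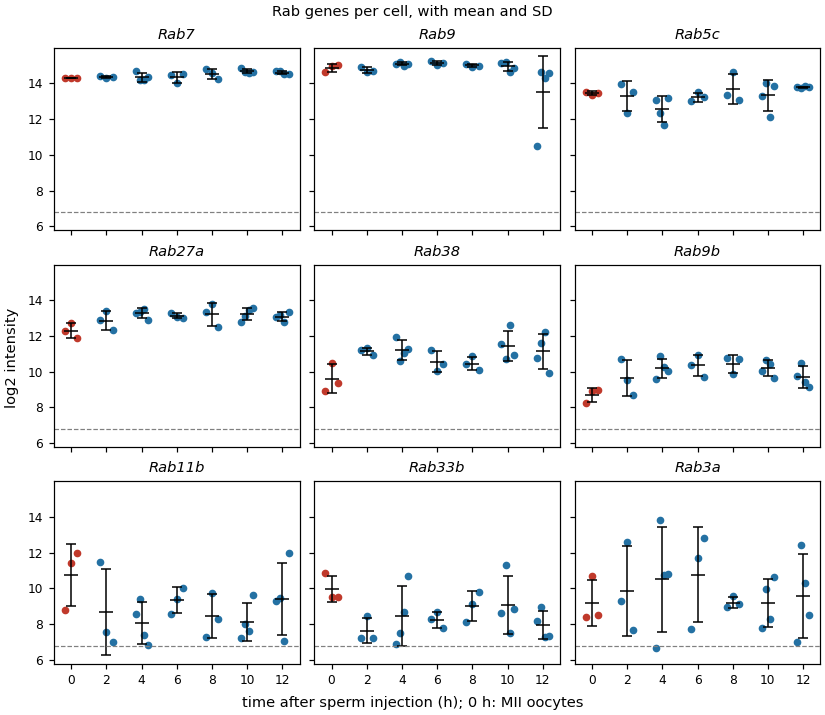
Log2 intensity of 9 Rab genes in each of the 24 cells against time after sperm injection in h (red, MII oocytes at 0 h; blue, embryos), with the mean and SD of each group as bars and the background of 6.79 as a dashed line. Rab7 stayed between 13.99 and 14.83 in all cells, 1 embryo at 12 h had a Rab9 value of 10.52, 20 of 21 embryos exceeded every oocyte in Rab9b, and Rab3a ranged from 6.67 to 13.83.

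Rab3a was the most variable member from cell to cell. It measured 8.40, 10.69 and 8.49 in the oocytes, 9.32, 12.58 and 7.67 at 2 h, and 6.67, 13.83, 10.75 and 10.81 at 4 h. It measured 7.76, 11.70 and 12.81 at 6 h, 8.94, 9.56 and 9.13 at 8 h, 7.78, 9.99, 8.31 and 10.62 at 10 h, and 7.01, 12.44, 10.30 and 8.50 at 12 h. Cells of 1 time thus ranged from background to bright, with a pooled standard deviation of 2.14. The change in all embryos was 0.65 (SE 1.21, 95% interval -1.86 to 3.16), so that neither a fall of 1 log2 unit nor a rise of 3 lies outside the interval.

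Rab8a and Rab10 carry post-Golgi vesicles to the cell surface. Rab8a measured 11.86, 12.18 and 12.42 in the oocytes and 8.25 to 14.04 in the embryos (median 11.37), with 15 of 21 below every oocyte, and its change was -0.95 (SE 0.77). Rab10 measured 13.65, 13.14 and 13.23 in the oocytes and 11.18 to 14.09 in the embryos (median 12.60), with 14 of 21 below every oocyte, and its change was -0.59 (SE 0.36). At 12 h the 4 values of Rab10, 12.58, 12.52, 11.18 and 12.46, all lay below the oocytes, a change of -1.16 (SE 0.44, limma adjusted p = 0.222).

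The other secretory genes were Rab3b, Rab3c, Rab3d, Rab8b, Rab13, Rab26, Rab27b and Rab37, and their changes in all embryos lay between -0.16 and 0.65. Rab13, linked to tight junctions, and Rab27b, a paralog of Rab27a, had low unadjusted p-values at single times with 1 cell above background. At 2 h Rab13 measured 7.33, 7.65 and 10.22 against 6.74, 6.65 and 6.98 in the oocytes (limma adjusted p = 0.199), a change of 1.61, or 0.70 without the brightest cell. At 12 h Rab27b measured 7.57, 7.02, 7.21 and 9.36 against 6.94, 6.76 and 6.47 (limma adjusted p = 0.181), a change of 1.07, or 0.55 without the brightest cell. The other cells of both groups also lay above every oocyte, within the background range.

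Of the 6 genes outside these classes, Rab44, a large Rab known from granule release in immune cells, had the largest decrease. It measured 7.02, 7.46 and 9.46 in the oocytes and 6.63 to 7.85 in the embryos (median 6.89). The change of -0.99 (SE 0.32, limma adjusted p = 0.187) rested on 1 oocyte, since the other 2 and 20 of 21 embryos were at background, and it was -0.25 without that oocyte. The other 5 genes had changes between -0.66 and 0.26.

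Over the 21 embryos the slopes of the 59 genes lay between -0.19 and 0.15 log2 units per hour. The negative end was Rab31, of traffic between the Golgi and endosomes, with a slope of -0.19 (SE 0.07, limma adjusted p = 0.236). It measured 11.23, 7.32 and 8.75 at 2 h and 6.58, 6.96, 6.91 and 8.26 at 12 h, so that the early cells were scattered and the late ones mostly at background, and the slope was -0.13 without the 2 h embryo at 11.23. The upper end was Rab3b, whose cells ranged from 6.71 to 13.61 and whose slope was 0.15 (SE 0.11).

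Some Rab genes were bright in 1 or a few cells only. Rab6b, a paralog of Rab6a, measured 13.75 in 1 embryo at 12 h and at most 9.17 in the other 23 cells. Rab30 measured 11.56 in 1 embryo at 2 h and 9.83 in 1 at 10 h, and at most 7.27 in the others. Across the 59 genes the median SD within the oocyte group was 0.34 (0.28 for all genes), and within the embryo groups it was 0.50 to 0.62 (0.46 to 0.53 for all genes). Among genes above background in all cells it was 0.32 for Rab genes and 0.31 for all such genes in the oocytes. In the embryos it was 0.58 against 0.64 at 2 h, 0.57 against 0.55 at 4 h and 0.52 against 0.53 at 6 h. It was 0.64 against 0.61 at 8 h, 0.55 against 0.60 at 10 h and 0.55 against 0.63 at 12 h. Each of the high values of Rab6b and Rab30 rests on 1 separately amplified cell.

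Probes of the same gene did not always give the same direction. Beside the 59 probes used there were 55 others, of which 24, on 18 genes, had a mean above background. Of these 24, 11 probes on 11 genes changed in the opposite direction in all embryos, among them those of Rab5a, Rab5b, Rab7, Rab11a, Rab14, Rab18, Rab21 and Rab27a. Which transcripts each probe matches was not analysed here.

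The proteins that load, end and read out the Rab signal were examined as 4 lists, with 146 of 153 genes measured, and 5 of the 146 were called in some comparison, against 2.69% of all genes called in any of the 9. In all embryos against oocytes 1 of 7 genes of prenylation and GDP dissociation, 2 of 49 exchange factors, 0 of 39 GTPase-activating proteins and 1 of 51 effectors fell, and 0 rose, where 0.932% of all genes were called and 0.758% were called lower. The 39 GTPase-activating proteins had 4 genes at an unadjusted p under 0.05 in all embryos (10.6% of all genes). They had 10 at 12 h (13.5% of all genes), 9 in the slope (12.5%) and 2 to 4 in the other comparisons. In all embryos the median change was -0.46, 0.04, -0.08 and -0.0015 for the 4 lists, against 0.10 for all genes.

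Hps4 fell after sperm injection. With Hps1 it forms the exchange factor of Rab32 and Rab38. It measured 8.18, 10.60 and 11.48 in the oocytes, 7.07, 6.67 and 10.54 at 2 h, and 6.54 to 7.74 in the 18 embryos from 4 h to 12 h. All 3 oocytes and 1 embryo at 2 h were above background, and the other 20 embryos were not.

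The change of Hps4 was -2.86 (SE 0.56, limma adjusted p = 0.0138) in all embryos, -3.23 (adjusted p = 0.0306 from limma) at 10 h and -3.27 (adjusted p = 0.0168 from limma) at 12 h. In all embryos the limma adjusted p was 0.127 without oocyte c, 0.188 without oocyte d and 0.00445 without oocyte a, the lowest of the 3. The call at 10 h was lost without oocyte c or d or any 1 of the 4 embryos, and that at 12 h without oocyte c or d. On the same arrays Rab38 had a change of 1.39 and Rab32 a change of -0.39, and neither passed the test.

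Exoc6, the Sec15 subunit of the exocyst, which binds Rab11 and tethers vesicles at the plasma membrane, fell as well. It measured 11.67, 12.34 and 13.01 in the oocytes, 12.63, 11.14 and 8.78 at 2 h, 8.51, 8.10 and 8.92 at 8 h and 7.31, 8.68, 7.80 and 7.44 at 10 h. At 12 h it measured 7.81, 10.65, 11.00 and 8.84. The 8 h and 10 h embryos were all below every oocyte, as were 20 of the 21 embryos.

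The change of Exoc6 was -3.83 (SE 0.90, limma adjusted p = 0.0467) at 8 h, -4.53 (SE 0.84, adjusted p = 0.0135 from limma) at 10 h and -3.25 (SE 0.68, adjusted p = 0.0207 from limma) in all embryos. In all embryos the adjusted p from limma was 0.080 to 0.186 without any 1 of the 3 oocytes. The call at 10 h was lost without oocyte c or d, and that at 8 h without any 1 of the 6 cells compared. Another probe of Exoc6 above background changed by -0.80, and the mean of its probes by -1.20 (limma adjusted p = 0.148).

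Dennd2a, an exchange factor of Rab9, fell at 12 h and in all embryos. It measured 10.63, 10.68 and 11.50 in the oocytes, 6.71, 7.20, 7.82 and 7.94 at 12 h and 6.67 to 11.82 in the 21 embryos (median 7.82), with 20 of 21 below every oocyte. The change was -3.52 (SE 0.80, limma adjusted p = 0.0263) at 12 h and -3.01 (SE 0.64, adjusted p = 0.0235 from limma) in all embryos. Without any 1 of the 3 oocytes the adjusted p from limma was 0.076 to 0.130 at 12 h and 0.110 to 0.188 in all embryos. At 12 h the call was also lost without embryo a or b.

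Chm, the Rab escort protein REP1, measured 11.00, 7.01 and 8.32 in the oocytes and 6.67 to 7.52 in the 21 embryos (median 6.87). No embryo was above background, and neither was 1 of the 3 oocytes. The change of -1.78 (SE 0.42, limma adjusted p = 0.0403) rested on oocyte a, without which it was -0.67 (adjusted p = 0.419 from limma). It also missed the threshold without oocyte d and without any of 18 of the 21 embryos, with adjusted p-values from limma of up to 0.113 and 0.055, and 2 other probes of Chm were at background.

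Trappc1, a subunit of the TRAPP complex that activates Rab1, was called only in the F-test over all 7 times (limma adjusted p = 0.0245). It measured 9.33, 9.46 and 8.81 in the oocytes, 6.64, 6.79 and 6.81 at 8 h and 10.86, 12.09, 12.85 and 11.05 at 12 h. All 3 embryos at 8 h were at background, and the other 18 embryos were above it. This is the group with the most sperm markers above background, whose part in this value was not tested. Without any 1 of those 3 embryos the adjusted p from limma was 0.0592 to 0.0675. Exoc6 had an adjusted p of 0.0485 from limma in the same F-test, which was lost without any 1 of the 3 oocytes or of 15 of the 21 embryos.

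**Figure D4:**
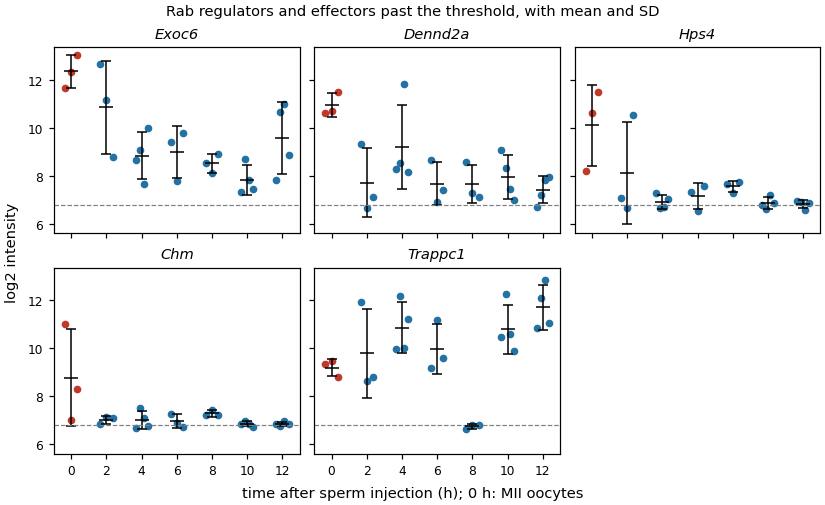
Log2 intensity of the 5 Rab regulators and effectors that passed the adjusted threshold in some comparison, in each of the 24 cells against time after sperm injection in h (red, MII oocytes; blue, embryos), with the mean and SD of each group and the background of 6.79 as a dashed line. In Exoc6, Dennd2a and Hps4 20 of 21 embryos lay below every oocyte, in Chm 1 of the 3 oocytes was at background with the embryos, and in Trappc1 the 3 embryos at 8 h were at background.

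The 4 genes that fell share the same 3 oocytes as their control, so their changes are not independent of each other. Their slopes over the embryos, in the order Hps4, Exoc6, Dennd2a and Chm, were -0.08, -0.12, -0.09 and -0.02 log2 units per hour and did not pass the test (limma adjusted p of 0.52 to 0.779).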

How the data were processed

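Each array measured the amplified mRNA of 1 cell. The authors deposited 1 score per probe and array; per the submitters' processing notes limma was used (no version named), while for background correction and scanner the sources used here give nothing. The deposited scores ran from 0 to 4.57 with medians of 1.16 to 1.18. They fitted an iterated natural logarithm of intensity, less its minimum, over 0.225. The fit was read from 160 values of tied probes lying midway between levels (largest residual 0.0161). Values far from the fitted curve were left out first, so the small residual does not test that form. The planned test needed log2 values, so scores were turned back to log2 intensity, which rests on this fit. The labels mention digoxigenin for sample cDNA and biotin for a reference, but the dye entry of each array says biotin, so which one the values hold was not settled.

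Of 41174 probes 32664 had 1 gene symbol, 45 several and 8465 none; 32524 matched NCBI RefSeq (GRCm38.p6) by Entrez ID. All 24 arrays entered 1 fit of 7 group means (limma 3.58.1, R 4.3.3, lmFit and eBayes with trend), two-sided, with Benjamini-Hochberg adjustment over 19532 genes in each of 9 comparisons. "All embryos" is the mean of the 6 embryo group means minus the 0 h mean; the slope was fitted to 21 embryos. Groups and replicate letters came from the sample titles. No arrays were copies of each other (smallest mean absolute difference 0.51 log2 units). The number of arrays limits the precision, and saturation could not be assessed.

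Named genes were any Rab gene called, the 5 largest increases and decreases in all embryos among genes above background in some group, 20 textbook members, and every regulator or effector called; Rab3b, Rab6b, Rab13, Rab21, Rab27b, Rab30 and Rab31 were added after their values were seen. Members and lists were chosen with earlier results of these data known. Alternatives were the deposited scores, no trend, array weights, only the groups compared, the mean of all probes, the brighter 60% of genes, the replicate letter as a block, and leaving out each array. The recovery of the scale and the fits were tested on simulated data.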

Additional observations from a re-analysis of the deposited data

Results flagged for a closer look

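Groups of 4 cells were examined for 1 cell far from the other 3, by the gap to the nearest cell as a share of the group's range. Of 90 groups over 30 genes, 5 had such a cell, where chance gives about 1 in 20. Rab9 measured 10.52 in 12 h replicate a, and 14.29 to 14.65 in the other 3. Rab10 measured 11.18 in 12 h replicate c, and 12.46 to 12.58 in the others. Rab44 measured 6.89 in 12 h replicate a, and 7.13 to 7.16 in the others, all at background. Rab1b measured 10.61 in 4 h replicate b, and 7.85 to 8.32 in the others. Dennd2a measured 11.82 in 4 h replicate c, and 8.15 to 8.53 in the others.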

How the results depend on the processing

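The 9 counts of Rab genes called were 0 and stayed 0 in all but 8 of 177 alternatives. With array weights, which give arrays far from the fit less weight, the count was 1 at 8 h (Rab21), 2 at 10 h (Rab38 and Rab9b), 1 at 12 h (Rab27b) and 5 for all embryos (Rab11b, Rab27a, Rab38, Rab44 and Rab9b), and 0 in the other comparisons. In all embryos 1171 of all 19532 genes were then called, against 182 without weights, and 51 to 62 without any 1 of the 3 oocytes. Leaving out each cell in turn gave 0 to 1 at 2 h (Rab13, without 2 h replicate a), 0 to 1 at 8 h (Rab21, without 8 h replicate c) and 0 to 1 over all 7 times (Rab13, without 2 h replicate a or d). It gave 0 to 0 at 4, 6, 10 and 12 h, for all embryos and for the slope. With the replicate block the count was 0 in all 9 comparisons, and the deviations of same-letter cells had correlations of -0.13 to 0.18, over 0.1 in 5 of 62 pairs, so the letters were not taken as pairs. Without the 2 arrays with the fewest distinct values, chosen after seeing the data, it was also 0. The cause of these differences was not tested. Of 565 alternatives of 21 results for single genes, 0 reversed, 89 lost the call (all of regulators and effectors) and 5 gained it, those with array weights. A setting with 1 cell fewer has less power by its construction.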
